A study of Drosophila melanogaster with 4 samples.

Results

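Broad domains of the histone deacetylase RPD3 are wide stretches of the fly genome that were called enriched in these embryos. A domain was chosen by its width in the series-wide list, the combined list below: an enriched region of 6000 bp or more on 2L, 2R, 3L, 3R or X that shared at least 1 bp with an enriched region of each of the 2 ChIP replicates. This rule gave 683 domains among the 18110 enriched regions of the combined list on those 5 arms, and among 19364 on all sequences. They are set beside the 3698 regions under 6000 bp that were also found in both replicates, called narrower regions.

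Chromatin was immunoprecipitated with an RPD3 antibody (Q3451) in 2 libraries. There were also 2 input libraries, labelled with the same replicate numbers as the ChIP libraries. All 4 came from wild-type Oregon-R embryos of 14 to 16 h, so every group shared strain, genotype and age. A whole embryo holds all tissues, and a region found in a few cell types cannot be told apart from a weaker region found in many. The labels did not say that the replicates came from separate collections, so the spread between them may be technical. The files gave a start, an end and a score for each region on FlyBase release 5. Depth is unknown, since the lists hold no numbers of reads.

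RPD3 removes acetyl groups from histone tails and works as the catalytic subunit of co-repressor complexes such as those built on Sin3A. Deacetylases of this class are found at active as well as at silent genes in flies and mammals, where they oppose histone acetyltransferases. Enrichment over several kilobases can come from a factor spread along chromatin or from several close sites that the caller joined, and lists of regions alone cannot tell these apart. The genes and bases at the domains were not analysed here, because no genome or annotation of release 5 was used.

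Width and presence in both replicates chose the domains, so the counts that follow from them are a description. A wider region also meets an overlap of 1 bp more readily, so the shares found in both replicates do not compare agreement between widths. Of the 18110 combined-list regions on the 5 arms, 24.2% were found in both replicates, and 15.6% of those were 6000 bp or wider. Among the 689 regions of that width, 99.1% were found in both replicates. The other 6 overlapped regions of replicate 2 and none of replicate 1. They lay on 2L, 3L and 3R with 1 each and on the X with 3, their combined-list scores ran from 0.51 to 0.71, and the widest of them was the X region from 1606851 to 1614963, at 8113 bp. A further 2 regions of at least 6000 bp, on 3LHet and U, were outside the 5 arms and were left out. No domain overlapped a region marked as depleted (0 overlaps).

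The domains were few but long. They made up 3.77% of the regions of the combined list on the 5 arms and 14.6% of its length there. They covered 5.80 Mb, or 4.88% of the 5 arms, against 12.3 Mb, or 10.3%, for the narrower regions. The median domain was 7565 bp wide, and 90% were narrower than 11868.8 bp. The tail was long: 143 domains reached 10 kb, 22 reached 15 kb and the widest was 29500 bp. By contrast 248 domains (36.3%) were under 7 kb, so the 6 kb boundary cut through a continuous range of widths. The 3 domains nearest to it were 6001, 6004 and 6012 bp wide, with combined-list scores of 0.50, 1.05 and 0.62. The 3 narrower regions nearest to it were 5998, 5998 and 5993 bp wide, with scores of 0.86, 1.06 and 0.77. Nothing in these scores separated the regions just inside from those just outside.

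The domains were spread over all 5 arms, with different densities. Arm 2R had 151 domains, or 7.14 per Mb, the X had 155 (6.91 per Mb) and 3R had 172 (6.16 per Mb). Arms 3L and 2L had fewer, with 107 (4.36 per Mb) and 98 (4.26 per Mb). Set against narrower regions, the X had the larger share of domains. It held 22.7% of all domains and 16.9% of all narrower regions. Arms 2R and 3R held nearly equal shares of both kinds, at 22.1% of domains and 22.1% of narrower regions for 2R and 25.2% and 25.2% for 3R. Arm 3L held 15.7% of domains and 19.7% of narrower regions, and 2L held 14.3% and 16.1%.

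Put as a share of the regions found in both replicates, 19.9% on the X were domains (Wilson 95% interval 17.2 to 22.8%), against 14.7% on the autosomal arms (13.5 to 15.9%). The single autosomal arms ranged from 12.8% on 3L (10.7 to 15.3%) to 15.6% on 3R (13.6 to 17.9%). These intervals cover counting error only and treat neighbouring regions as independent, and no test was made of the difference between arms. Domains covered 6.24% of the X, 5.86% of 2R, 5.14% of 3R, 3.68% of 2L and 3.61% of 3L. X domains were also wider, with a median of 8260 bp against 7494.5 bp on the autosomal arms, and 45 of the 143 domains of at least 10 kb were on the X. The X share was 21.0% of domains from 6 to 7 kb, 16.4% from 7 to 8 kb, 23.0% from 8 to 10 kb, 30.6% from 10 to 15 kb and 36.4% (8 of 22) from 15 kb up. Scores were higher on the X in both kinds of region, as given below, and the part of this in the widths was not tested.

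**Figure D1:**
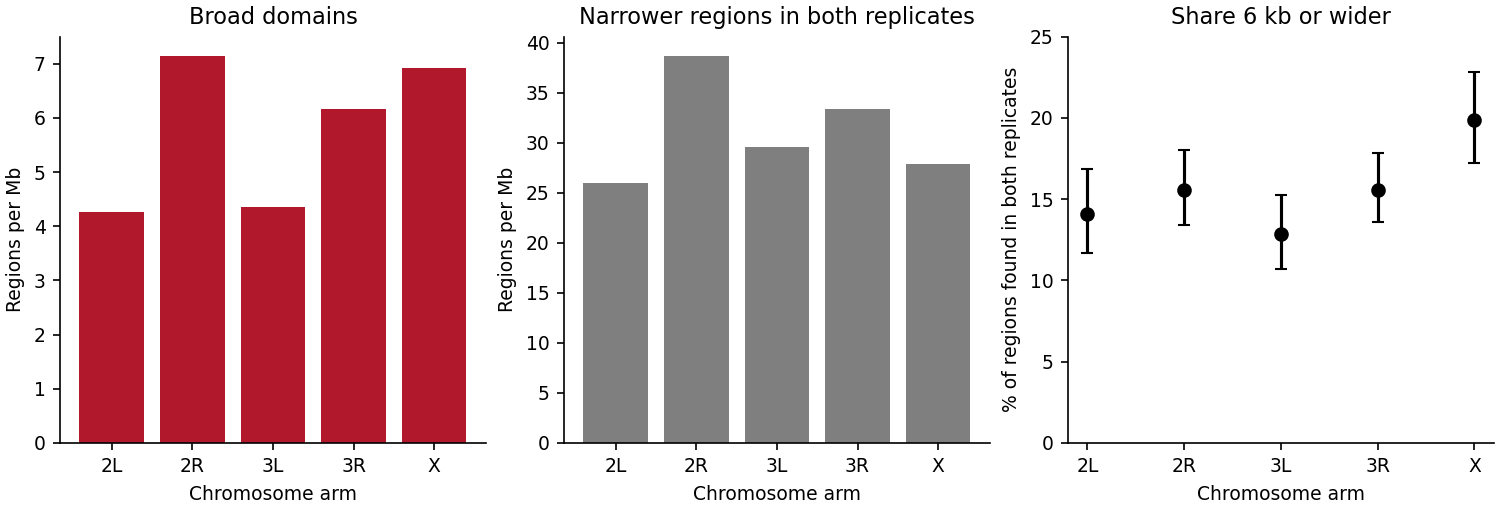
Regions per Mb on each arm for broad domains (left) and narrower regions found in both replicates (middle), and the percent of regions found in both replicates that were 6 kb or wider (right; points with Wilson 95% intervals for counting error). The X has 6.91 domains per Mb, close to the 7.14 of 2R, while its narrower regions are at 27.9 per Mb against 38.7 on 2R, and its share of wide regions is 19.9%.

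The score of a region is the authors' log2 value, taken as a ratio of ChIP to input. The same libraries and contrast chose the domains, so scores are described and not tested. In the combined list the domains had a median score of 0.85, a ratio of 1.80 on a linear scale, and the narrower regions had 0.66, a ratio of 1.58. With the lists limited to regions scoring at or above the median of each list, the difference of these medians was 0.048 in place of 0.19. Single domains ran from 0.48 to 1.57, inside the range of the narrower regions, 0.07 to 1.96. The highest scores thus belonged to narrower regions. The 25th percentile of the domains was 0.73, above the median narrower region.

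The replicates gave the same order. The replicate regions that overlapped a domain or narrower region were averaged with their lengths as weights. A replicate region counted with its full length even where only part of it lay in the interval. The median was then 0.94 for domains and 0.81 for narrower regions in replicate 1. In replicate 2 it was 0.99 for domains and 0.81 for narrower regions. The difference of medians was 0.15 ± 0.03 (SD, n = 2). With the highest-scoring replicate region in place of the average, the medians for domains were 1.00 in replicate 1 and 1.03 in replicate 2, against 0.81 and 0.82 for narrower regions, a difference of 0.20 ± 0.02 (SD, n = 2). It was 0.078 in the lists limited by score. That highest region stood at the 81.4th percentile of all regions of replicate 1 on the 5 arms and at the 84.6th of replicate 2 in the median domain, against 51.7 and 55.8 in the median narrower region. A domain holds more replicate regions than a narrower one, and the highest of several values tends to be larger, which the length-weighted value avoids.

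**Figure D2:**
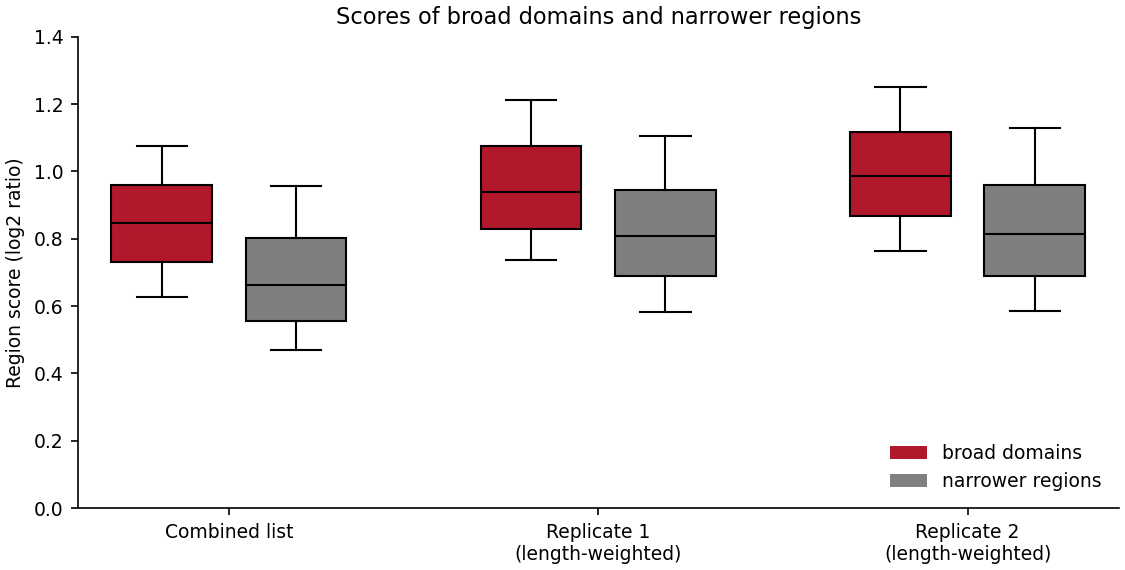
Scores (log2 ratio) of broad domains (red) and narrower regions (grey) in the combined list and, averaged by length over the replicate regions they overlap, in each replicate; the line in a box is the median, the box spans the 25th to 75th percentiles and the whiskers the 10th to 90th. Domain medians are 0.85, 0.94 and 0.99 against 0.66, 0.81 and 0.81 for narrower regions, and the boxes overlap in every list.

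Domain scores were higher than those of narrower regions on each arm taken alone. In the combined list the difference of medians was 0.18 on the X, 0.21 on 3R, 0.18 on 2L, 0.17 on 3L and 0.15 on 2R. In the length-weighted values it lay between 0.11 and 0.14 over the 5 arms in replicate 1 and between 0.14 and 0.17 in replicate 2. The X was shifted as a whole: its domains had a median of 0.96 and its narrower regions one of 0.78, against 0.81 and 0.64 on the autosomal arms. A narrower region of the X therefore scored about as high as a domain of an autosome. Wider domains also scored somewhat higher. The combined-list median was 0.79 from 6 to 7 kb, 0.81 from 7 to 8 kb, 0.87 from 8 to 10 kb, 0.90 from 10 to 15 kb and 0.94 from 15 kb up. Across the 683 domains, the correlation of width with score was 0.26 (Spearman) and 0.25 (Pearson), against 0.51 and 0.45 across the 3698 narrower regions, given as a description of regions that share the same libraries.

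The replicates ranked the domains alike. Across the 683 domains, the correlation between their length-weighted scores was 0.76 by both Spearman's and Pearson's measure, and across the 3698 narrower regions it was 0.70 (Spearman) and 0.74 (Pearson). These are correlations over regions of the same pair of libraries and carry no test. The highest score in a domain was larger in replicate 2 than in replicate 1 in 415 domains (60.8%) and in 1933 narrower regions (52.3%).

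Most domains were not single blocks in the replicates. Replicate 1 had 246 domains with 1 region, 330 with 2, 84 with 3, 17 with 4, 3 with 5 and 3 with 6. Replicate 2 had 310 domains with 1 region, 292 with 2, 68 with 3, 11 with 4, 1 with 5 and 1 with 7. The mean was 1.77 ± 0.11 regions a domain (SD, n = 2), against 1.06 ± 0.0044 for narrower regions. A wider interval has room for more regions, and width chose the domains, so this is a description.

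The division into blocks was shared between the replicates in part. In 284 domains (41.6%) both replicates had 2 or more regions, and in 157 (23.0%) both had exactly 1. In 153 domains only replicate 1 had several, and in 89 only replicate 2 had. The number was the same in 346 domains, higher in replicate 1 in 210 and higher in replicate 2 in 127. Across domains, width was correlated with the number of regions in replicate 1 (Spearman 0.48) and in replicate 2 (0.39). The part of width in the shared division was not tested. The sharing that the separate counts of the replicates would give alone was not worked out. In the narrower regions, 89.2% had 1 region in both replicates. The 157 domains that were a single block in both replicates were 6794 bp wide at the median with a combined-list score of 0.87, while the 284 that were divided in both were 9040 bp wide with a score of 0.85. The length-weighted medians were higher in the single blocks, at 0.98 against 0.92 in replicate 1 and 1.02 against 0.96 in replicate 2. The medians of the highest-scoring region were lower in them, at 0.98 against 1.01 in replicate 1 and 1.02 against 1.06 in replicate 2. The X held 21.0% of the single-block domains and 24.3% of the divided ones. The order of their scores thus depended on the measure.

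Most domains did not reach 6 kb as a single region of a replicate. Replicate 1 had such a region in 123 domains (18.0%) and replicate 2 in 216 (31.6%). In 87 domains both replicates had one, and in 431 (63.1%) neither had. On the 5 arms replicate 1 listed 123 regions of that width in all, and replicate 2 listed 219. The widest replicate region in a domain measured 3929 bp at the median in replicate 1, and 4843 bp in replicate 2, against 2032.5 bp and 2204 bp in narrower regions. Most domains are therefore wide in the combined list only, and the way it was made from the replicates was not stated in the labels or headers.

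**Figure D3:**
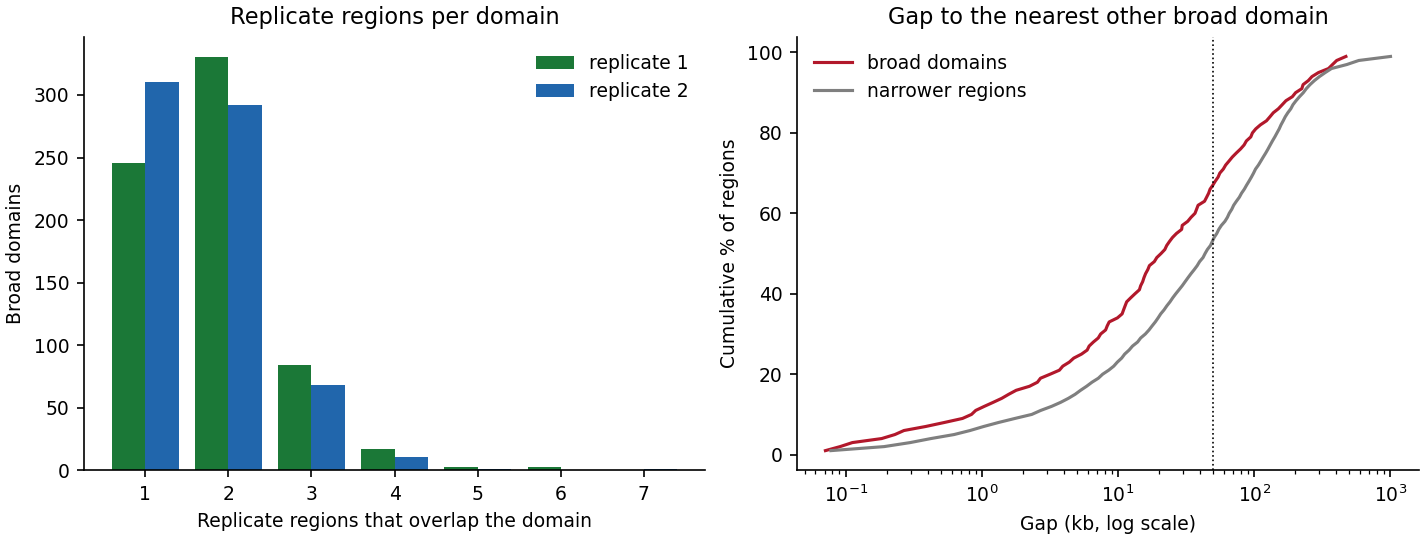
Left, number of broad domains by how many regions of replicate 1 (green) or replicate 2 (blue) overlap them: replicate 1 peaks at 2 regions (330 domains) and replicate 2 at 1 (310). Right, cumulative percent of broad domains (red) and narrower regions (grey) by the gap to the nearest other broad domain, in kb on a log axis, drawn from the 1st to the 99th percentile; at the dotted line at 50 kb the values are 67.5% and 53.4%.

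The blocks inside a domain lay close together. Among the 437 domains with several regions of replicate 1 there were 576 inner gaps, with a median of 543 bp, and 70.1% were under 1 kb. Replicate 2 had 471 inner gaps in 373 domains, with a median of 482 bp, of which 76.0% were under 1 kb. The widest inner gap measured 5153 bp for replicate 1, and 4425 bp for replicate 2. The median margin between the edge of a domain and its outermost replicate region was 405 bp for replicate 1, against 221.5 bp for replicate 2.

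Replicate regions filled most of a domain, though not more of it than of a narrower region. In the median domain, regions of replicate 1 covered 72.8% of the length and those of replicate 2 covered 81.7%, a mean of 77.2 ± 6.3% (SD, n = 2), against 79.8 ± 4.9% for narrower regions. The bases inside regions of both replicates made up 64.2% of the median domain and 68.3% of the median narrower region, and either replicate covered 89.8% and 91.7%. Over 50% of the length lay in regions of both replicates in 507 domains (74.2%), and under 20% did in 16. Regions that overlapped a domain were 18.6% of the regions of replicate 1 and 15.6% of those of replicate 2 on the 5 arms. The bases that lay inside domains made up 26.8% and 25.5% of the length of these lists.

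The extremes show what the same rule can hold. On 3L from 3142301 to 3151610, a domain of 9310 bp, replicate 1 had 1 region of 9181 bp scoring 1.14 and replicate 2 had 1 region of 9194 bp scoring 1.02, and 98.3% of the domain was covered by both. At the other end, the 2R domain from 758901 to 764978 had 2 regions of replicate 1 and 1 of replicate 2 that covered 44.6% and 23.9% of it, with only 0.33% covered by both. The X domain from 13558825 to 13565125 was similar, with 27.7% and 52.3% covered by the replicates and 0.51% by both. In such domains the overlap with each replicate required by the rule was met at different places, so few bases were called in both.

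The highest-scoring region of replicate 1 overlapped that of replicate 2 in 610 domains (89.3%), and in 97.0% of narrower regions. The midpoints of these regions were a median of 703 bp apart in domains and 163 bp in narrower regions. The 157 domains with 1 region in each replicate leave no choice of region, and all 157 are among the 610. Of the 284 domains with several regions in both replicates, the highest-scoring ones overlapped in 228 (80.3%), against 53 of 64 such narrower regions (82.8%). In the other 56 of these domains the replicates placed their highest score in regions that did not overlap. The strongest part lay off centre more in domains: the distance of its midpoint from the centre, as a share of the distance from centre to edge, had a median of 0.334 in replicate 1 and 0.267 in replicate 2, against 0.125 and 0.0961 in narrower regions, where a single region mostly fills the interval. Where a domain held several regions of a replicate, the highest-scoring was also the widest in 312 of 437 domains (71.4%) in replicate 1 and in 273 of 373 (73.2%) in replicate 2. Most of these domains held just 2 regions (330 in replicate 1 and 292 in replicate 2), where the 2 traits often coincide without any relation. The same count was not made for narrower regions. In domains with several regions of a replicate, the gap between the highest and the lowest score had a median of 0.21 in replicate 1 and 0.25 in replicate 2. It reached 0.94 and 1.37.

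The 12 widest domains were on the X (5), 3R (3), 3L (2), 2L (1) and 2R (1), and ran from 17575 to 29500 bp. The widest, on 3R from 8231915 to 8261414, had 6 regions of replicate 1 scoring from 0.78 to 0.98 and 5 regions of replicate 2 scoring from 0.72 to 1.24. Its combined-list score of 0.85 was that of the median domain. Replicate 1 had no region between 8240835 and 8245286, and replicate 2 had a region of 2499 bp inside this stretch, from 8242651 to 8245149, which was its weakest in the domain at 0.72.

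The 2R domain from 19430569 to 19454958 held the most blocks, 5 in replicate 1 and 7 in replicate 2. Its strongest regions were at opposite ends: in replicate 1 the last block, from 19450131 to 19454286, scored 0.97, while in replicate 2 the first, from 19430582 to 19433876, scored 1.17. The last block of replicate 2, from 19451096 to 19453756, scored 1.16, so the ends of this domain were close to equal in that replicate. The X domain from 11001503 to 11023764 combined great width with high scores, at 1.20 in the combined list, and regions of both replicates covered 87.2% of it. Its 4 regions of replicate 1 scored 0.87 to 1.56, and its 4 regions of replicate 2 scored 1.09 to 1.37.

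The replicates divided some of the widest domains differently. On the X from 1349231 to 1367792, replicate 2 had a single region of 16631 bp scoring 1.35, the widest in its list, where replicate 1 had 3 regions scoring 1.03, 1.25 and 1.20. On 3L from 5756808 to 5775611 it was replicate 1 that had its widest region, of 14038 bp and scoring 1.24, where replicate 2 had regions of 9117 bp and 3848 bp scoring 1.36 and 0.88. The X domain from 1268711 to 1286285 had 6 regions of replicate 1 and 4 of replicate 2. There a region of 9379 bp in replicate 2 overlapped the last 3 blocks of replicate 1, whose scores were 0.93, 1.12 and 1.25. On 3R from 12064630 to 12085687, replicate 1 had 5 small regions scoring from 0.53 to 0.76 and then a region of 8671 bp scoring 1.00 at the right end, and the last region of replicate 2 was likewise its strongest there, at 1.18. The widest 2L domain, from 1155285 to 1174367, had 3 regions of replicate 1 and 4 of replicate 2, the strongest scoring 0.97 in replicate 1 and 1.04 in replicate 2.

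**Figure D4:**
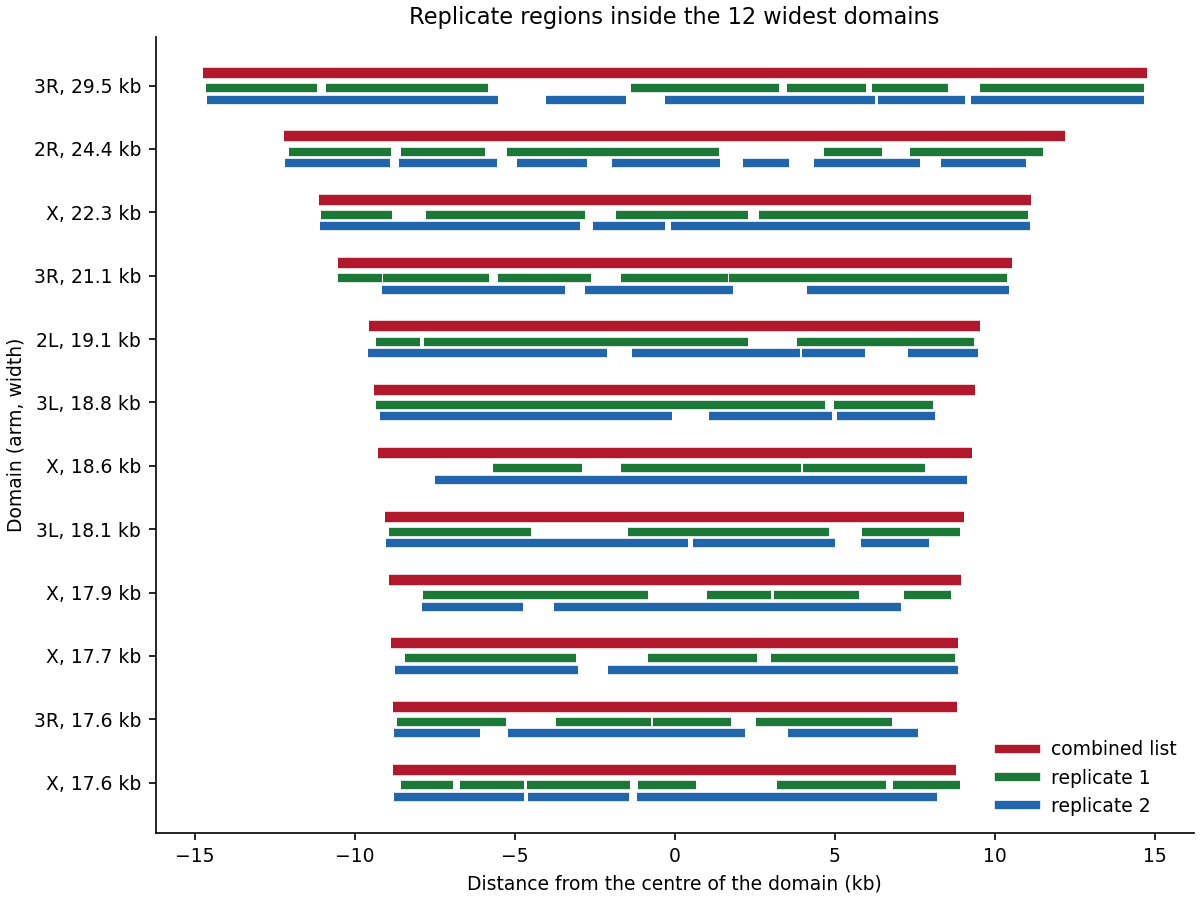
The 12 widest domains drawn to scale (red) with the regions of replicate 1 (green) and replicate 2 (blue) that overlap them; the horizontal axis is the distance from the centre of each domain in kb, and labels give arm and width. Every one of the 12 is divided into 2 or more regions in at least 1 replicate, and breaks in one replicate are often bridged in the other.

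The domains with the highest replicate scores were mostly on the X. Of the 10 with the highest mean percent rank, 8 were on the X, 1 was on 2L and 1 on 3R. The X held 22.7% of all domains. Its narrower regions also had higher best scores, with medians of 0.95 in replicate 1 and 0.96 in replicate 2. On the autosomal arms these medians were 0.79 and 0.80, so the shift on the X was not particular to domains. First was the 2L domain from 11996505 to 12013468, of 16964 bp, which also had the highest combined-list score of all domains, 1.57. Its main block scored 1.52 in replicate 1 (11997790 to 12008623) and 1.78 in replicate 2 (11997957 to 12008699). A second block scored 1.61 and 1.87 and began at 12009068 in replicate 1 and at 12008990 in replicate 2. Replicate 2 also had a weak region at the left edge, from 11996635 to 11997944, scoring 0.50, which replicate 1 lacked. The edges of the 2 stronger blocks lay within 200 bp of each other between the replicates, and both had the break between them.

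High scores also occurred in compact domains. The X domain from 1368685 to 1375296, of 6612 bp, was 1 region in each replicate, scoring 1.57 in replicate 1 and 1.69 in replicate 2, with 91.3% of its length in both. It lay 892 bp from the X domain from 1349231 to 1367792 described above. The X domain from 20261619 to 20268443 was also 1 region in each, scoring 1.58 and 1.64, with 93.1% in both. In other high-ranked domains a strong core had weaker sides. On the X from 6709884 to 6721819 the core scored 1.68 in replicate 1, (6712642 to 6716275), and 1.71 in replicate 2 (6712328 to 6716557), while the other regions there scored between 1.00 and 1.03. The highest score of replicate 1 in any domain, 1.80, was in the X domain from 19368742 to 19378186, in a region of 4337 bp from 19372139 to 19376475. Replicate 2 had a single region of 7452 bp scoring 1.61 there. The X domain from 9498720 to 9506583 had a core of 1.60 in replicate 1 and 1.77 in replicate 2. Its side regions scored 0.94 in replicate 1 and 0.72 and 0.77 in replicate 2. The region at 0.77, from 9506256 to 9507569, lay mostly beyond the right edge of the domain. The only 3R domain of the 10, from 25313209 to 25320558, was called nearly alike in both: its regions scored 1.51 and 0.92 in replicate 1 and 1.59 and 1.00 in replicate 2. The lowest combined-list scores were on 3R from 133782 to 140019 (0.48) and on 3L from 19032014 to 19038857 (0.49), where 32.4% and 23.5% of the length was covered by both replicates.

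Domains lay nearer to other domains than narrower regions did. The gap from a domain to the nearest other domain had a median of 20.7 kb, and the gap from a narrower region to the nearest domain one of 43.6 kb. Another domain lay within 50 kb of 461 domains (67.5%), and a domain lay within 50 kb of 1976 narrower regions (53.4%). With domains of at least 8000 bp, which are fewer, 44.1% had another within 50 kb. At 50 kb the share was higher for domains on each arm: 76.1% against 59.4% on the X, 70.9% against 52.6% on 3R, 66.2% against 61.0% on 2R, 63.3% against 42.2% on 2L and 55.1% against 50.1% on 3L. The difference was smallest on 2R and 3L and was not tested. Some neighbours were almost in contact: 16 of the 678 neighbouring pairs of domains on an arm were 200 bp or less apart, and 42 were 1 kb or less apart. Counting any other combined-list region, 199 domains (29.1%) and 885 narrower regions (23.9%) had one within 200 bp, so near contact was common in both kinds. How the combined list separates regions, and its part in the nearness of domains, was not tested.

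The sequence around domains was also rich in called regions. In the 20 kb on each side, a median of 51.2% was inside combined-list regions, against 43.9% for narrower regions and 33.4% over the 5 arms. For regions of replicate 1 the values were 24.0% for domains, 18.1% for narrower regions and 13.0% over the arms, and for replicate 2 they were 27.4%, 21.7% and 15.1%.

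Joining domains with gaps up to 50 kb gave 382 groups, of which 222 were single domains, 96 pairs, 33 triplets and 31 larger runs. The runs depend on the gap: 18 held 5 or more domains at 50 kb, 4 did at 20 kb and 31 at 100 kb, and the longest held 15, 6 and 17 domains at these gaps. The runs below are those at 50 kb. The longest run, on the X from 1758219 to 2148435, held 15 domains in 390 kb. Domains made up 35.3% of that stretch and all combined-list regions 76.5%. It had 26 narrower regions between the domains, and the domains held 31 regions of replicate 1 and 27 of replicate 2. Their combined-list scores ran from 0.66 to 1.29 with a median of 0.90. The strongest was the domain from 2044751 to 2054910, at 1.45 in replicate 1 and 1.62 in replicate 2, and at 1.29 in the combined list. Its left neighbour, from 2034918 to 2044276, was less than 1 kb away and scored 0.74, 0.98 and 0.67 in these lists. Over all domains the 10th and 90th percentiles of the combined-list score were 0.63 and 1.08, so this pair of neighbours differed by more than that range.

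The next longest run, also on the X, from 19368742 to 19646195, held 12 domains in 277 kb, with a median score of 1.06 and a range of 0.76 to 1.36. Its first 2 domains were its strongest in the combined list, at 1.36 and 1.35, and its last, from 19635432 to 19646195, followed at 1.30. Of the 4 runs of 7 domains, the longest was on 3R, from 11034021 to 11176667, with scores from 0.80 to 1.17. The 3 others were on 2R, from 11808058 to 11920417, 20569756 to 20674072 and 20760413 to 20875318, with median scores of 0.74, 0.81 and 0.81. The 3R run had a median of 0.92, so the 3 runs on 2R had the lower scores among these 6 runs. Domains took up most of a short run on 2L, from 1103413 to 1187194, where 5 domains filled 65.3% of 83.8 kb.

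**Figure D5:**
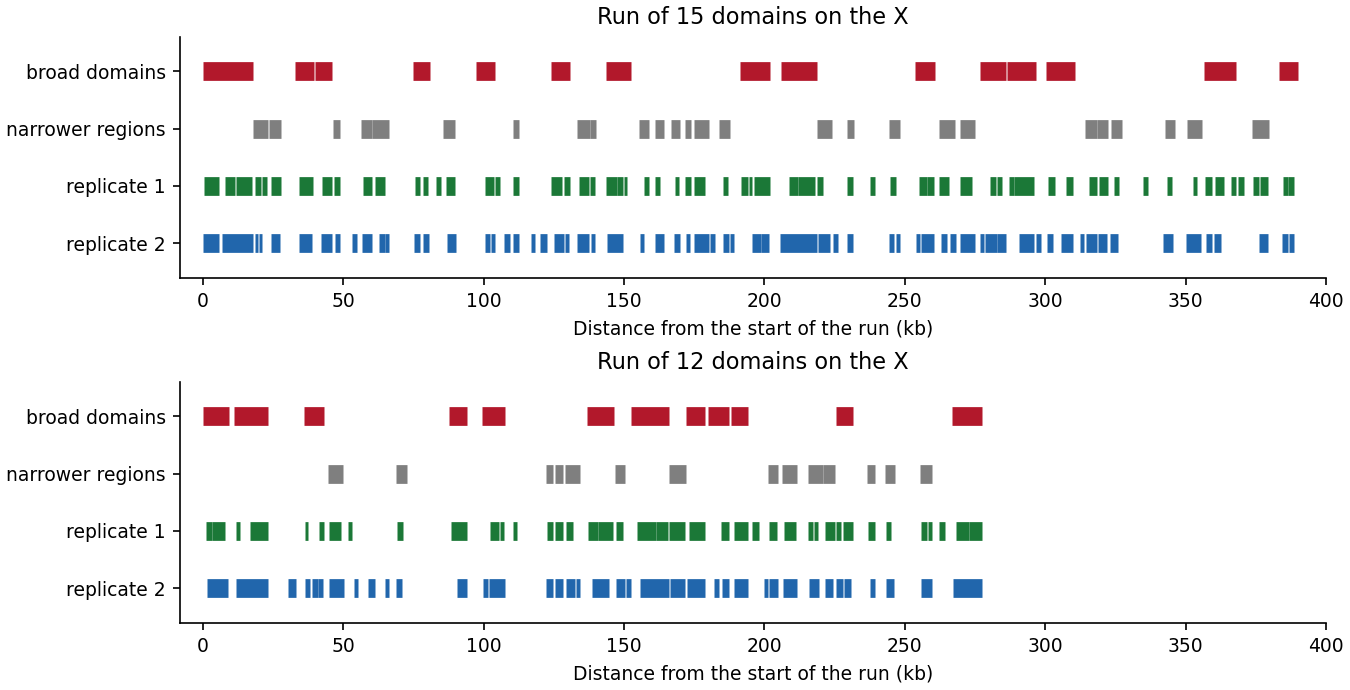
The 2 longest runs of broad domains, both on the X, by distance from the start of the run in kb: broad domains (red), narrower regions found in both replicates (grey), and all regions of replicate 1 (green) and replicate 2 (blue). The upper run has 15 domains in 390 kb and the lower has 12 in 277 kb, with gaps between domains of up to 46.1 and 44.3 kb.

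Over 117 full bins of 1 Mb the median bin held 5 domains, and 5 bins held 0. The 7 bins with 12 or more, singled out after their values were seen, held 114 domains, or 16.7% of all. They were 2R from 20 to 21 Mb with 23 domains, X from 1 to 2 Mb with 22, X from 19 to 20 Mb with 16, 2R from 19 to 20 Mb and X from 2 to 3 Mb with 14 each, 3R from 11 to 12 Mb with 13 and 2R from 11 to 12 Mb with 12. Bins with many domains did not always have many narrower regions: the X bin from 2 to 3 Mb had 27 narrower regions with its 14 domains, and 2R from 3 to 4 Mb had 57 with 10. That X bin was the exception among the 7. The others held 33 to 59 narrower regions, against 31.1 per Mb over the 5 arms. Across bins the counts of domains and narrower regions were correlated at 0.43 (Spearman) and 0.46 (Pearson), as a description of bins of the same lists.

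Long stretches had no domain. The longest was on 2L from 15013093 to 18446967, 3.43 Mb with 60 narrower regions. The longest on the other arms were 1.56 Mb on 2R from 943633 to 2500257, 1.24 Mb on 3L from 23306238 to the end of the arm, 1.19 Mb on the X from 21232304 to the end of the arm, and 1.07 Mb on 3R from 5637388 to 6705401. Each of these stretches held narrower regions, from 7 on 3L to 60 on 2L, so RPD3 enrichment was called there in both replicates. The 2L stretch also held a region of 6499 bp, from 15488484 to 15494982, that was found in replicate 2 only.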

How the data were processed

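The 2 RPD3 ChIP libraries each had a deposited list of enriched regions, and the series had 1 combined list. No input values were used. Bowtie 0.12.7 was the aligner, per the submitters' processing notes. The build is FlyBase release 5, per the file headers, with positions counted from 1. What called the regions, at which thresholds, and what made the combined list were not stated in the labels or headers. The deposited score is on a log2 scale, inferred from the values: in each list all 11 ratios between the 12 most frequent scores were, to within 1e-05, ratios of whole numbers with denominators up to 129 in base 2, and 0 of 11 in base e or 10. That it is ChIP over input was inferred from labels that give the inputs the same replicate numbers as the ChIP libraries. Calls and widths can change with depth, which is unknown, so neither a count nor a width has an error from reads.

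Domains and narrower regions were selected by width, arm and overlap of at least 1 bp. Shares have Wilson 95% intervals where stated. Percent ranks are within the regions of a replicate on the 5 arms. No test was made, since the libraries that chose the domains also give their values. The numbers of replicate regions, coverage by each replicate, highest replicate scores, number of domains, gaps and runs were checked on simulated lists. The other measures were not checked in this way. The members, and the rule for the regions named (12 widest, 10 highest in mean rank, widest of each arm, 3 on each side of 6000 bp, 3 longest runs, most replicate regions, extremes of shared coverage), were chosen with earlier results of these data known. The lowest scores, the bins and stretches without domains, the 2L run and the runs of 7 beyond the third were added after their values were seen. Columns of other samples numbered 0. Python 3.11.15, numpy 2.4.6, pandas 2.3.3, scipy 1.17.1 and matplotlib 3.10.9 were used.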

Additional observations from a re-analysis of the deposited data

How the results depend on the processing

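No paired analysis was possible because the inputs, which share replicate numbers with the ChIP libraries, have no values of their own. Of 63 alternative values, 36 stayed within the range set for their result, 27 moved and 0 changed direction. Only the score differences between domains and narrower regions have a direction. The other values are counts, shares, regions per domain or positions for domains alone, which could not change direction. That range was a factor of 1.5 for the number of domains, so 932 with merging and 567 in the better-scoring part count as within it. It was a Wilson 95% interval for shares of domains and 1 SD between replicates for the other values, with the SD of the length-weighted difference used for the combined-list score. The number of domains (683) was 1096 with a width of at least 5000 bp and 295 with at least 8000 bp. The share of domains with a neighbour within 50 kb (67.5%) was 77.3% and 44.1% at those widths, by construction of fewer or more domains, 74.4% with regions within 200 bp merged and 62.1% with scores at or above the median of each list; it was 49.3% within 20 kb and 80.7% within 100 kb. The share of domains on the X (22.7%) was 27.1% at 8000 bp and 26.5% in the better-scoring part, and it was 26.5% without arm 2L, 29.1% without 2R, 26.9% without 3L and 30.3% without 3R, by construction. The number of replicate regions per domain (1.77) was 1.58 at 5000 bp, 2.12 at 8000 bp, 1.95 with merging and 1.43 in the better-scoring part. The best region lay at 0.357 of the way from centre to edge with merging, against 0.301. The median share of a domain covered by a replicate (77.2%) was 70.5% in the better-scoring part. The difference in combined-list score between domains and narrower regions (0.19) was 0.048 in the better-scoring part, where both sets are cut by score. The difference in best replicate score (0.20) was 0.25 at 8000 bp, 0.078 in the better-scoring part and 0.15 as a length-weighted mean. Leaving out each replicate in turn gave 683 to 689 domains, 67.5 to 67.8% with a neighbour, 22.7 to 22.9% on the X, score differences of 0.25 to 0.26 in the combined list and 0.21 to 0.26 in the replicate left, 1.69 to 1.84 regions per domain, 72.8 to 81.6% covered, and a position of 0.268 to 0.334. With 1 replicate required, more narrower regions enter the comparison. For regions per domain, share covered and position, the main value was the mean over the replicates and the range was their SD. Leaving out 1 replicate therefore kept these values within the range largely by construction, and they are among the 36. The unknown depth limits every width and count here.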
